A study of Mus musculus with 96 samples.

Results

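The miR-378 family is represented in the small RNA libraries by 5 mature miRNAs, namely mmu-miR-378a-3p and mmu-miR-378a-5p, the arms of one hairpin, and the paralogs mmu-miR-378b, mmu-miR-378c and mmu-miR-378d, written below without their species prefix. They were taken by name from the count tables, which list 1978 mature miRNAs, 1561 of them with at least 1 count in some library. Hearts of male C57Bl/6J mice aged 12 to 14 weeks were separated into 4 isolates, which are called CMs for cardiomyocytes, ECs for endothelial cells, HCs for hematopoietic cells and FBs for fibroblasts. Myocardial infarction (MI) was induced by permanent ligation of a coronary artery, and hearts were taken at day 1 (D1), D3, D7, D14 and D28. D0 stands for mice without an MI, so that a change against D0 includes the surgery and the ischemia together. Each of the 24 groups held 4 libraries, 96 in all, and the RNA of a library was a pool of 3 mice as a rule and of 2 in case of a missing sample. The study's methods state that at each time point the cell types came from matched mice, so that libraries of different cell types are not independent of each other. CMs were separated by low-speed centrifugation, ECs and HCs with beads against CD144 and CD45, and FBs by attachment to plastic. The amount of RNA used and the number of PCR cycles were set for each cell type, so their effects cannot be told apart from the cell type. In these bulk libraries, fewer cells of a type and less RNA per cell cannot be told apart either.

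The hairpin of miR-378a lies in an intron of Ppargc1b, the gene of PGC-1β, a coactivator of genes for mitochondria and fatty acid oxidation. Both arms are known for their part in energy metabolism of heart, skeletal muscle and fat, where carnitine O-acetyltransferase and the Mediator subunit MED13 are among the reported targets. A miRNA finds its targets mainly through the seed near its 5′ end, and the paralogs resemble miR-378a-3p, so a read may match several of them.

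The mature sequences of the paralogs are shown because their closeness bears on how their counts can be read. The RefSeq sequences used here, on build GRCm38.p6, held 3 of the 5 members, and miR-378a-3p and miR-378a-5p are given by name only. Capitals mark the seed, bases 2 to 8 from the 5′ end.
miR-378b: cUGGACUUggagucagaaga
miR-378c: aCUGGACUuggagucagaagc
miR-378d: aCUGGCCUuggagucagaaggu
MiR-378b is 20 bases long and lies on the plus strand at chr11:88352839-88352858, inside the protein-coding gene Msi2, which is read from the opposite strand, and outside its exons. MiR-378c is 21 bases long and lies on the minus strand at chr14:46954905-46954925, inside the protein-coding gene Samd4 of the opposite strand and outside its exons. MiR-378d is 22 bases long and lies on the minus strand at chr10:126710355-126710376, where the annotation lists no gene on either strand beside its own. With positions counted from the 5′ end of miR-378c, miR-378d differed from it by A6C and C21G over 21 bases, and miR-378b, aligned from base 2 of miR-378c, by C21A over 20 bases. Because miR-378b starts 1 base later and miR-378d differs within the seed, the 3 seeds were different.

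In the isolates, the total count of mature miRNAs per library ranged from 18286 to 65588543. Replicate 3 of HCs at D0 was by far the shallowest, and its miR-378a-3p count was 158, or 8640.5 CPM, its count scaled to a library total of 1000000 mature counts (exact 95% interval 7350.3 to 10090.4, for counting error alone). Its single count of miR-378a-5p gave 54.7 CPM with an interval from 1.38 to 305. Results that use this library are therefore also given without it. The defining miRNAs of each isolated cell type were highest in that type, namely 5 of 5 for CMs, 3 of 3 for ECs, 3 of 3 for FBs and 4 of 4 for HCs. The margin was narrow for the HC marker miR-150-5p, at a mean of 2586 CPM in HCs and 2544 CPM in ECs. It was also narrow for the EC marker miR-92a-3p, at 278 CPM in ECs and 223 CPM in HCs. CM miRNAs were nevertheless present in the other isolates, since miR-1a-3p, the main muscle miRNA, held 14.4% of its mean CPM of CMs in ECs, 12.2% in HCs and 0.493% in FBs.

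The main arm, mmu-miR-378a-3p, was highest in CMs, where it ranked between 3 and 16 among all mature miRNAs, and lowest in FBs, where it ranked between 69 and 103. Over the 24 libraries of a cell type, its lowest, median and highest values were 6887, 23370.2 and 28836 CPM in CMs. They were 703, 3439.8 and 5944 CPM in ECs and 1948, 3039 and 8640.5 CPM in HCs. FBs held 281, 491 and 668 CPM, so that every FB library lay below every library of the other 3 cell types. Libraries of ECs and HCs overlapped over most of their range, and the highest HC library, the shallow one, lay above the lowest CM library. The other members followed this order of CMs above ECs and HCs above FBs. Their mean CPM in CMs, ECs, HCs and FBs was 18209, 3365, 3173 and 423 for mmu-miR-378c and 15999, 3763, 3578 and 476 for mmu-miR-378d. It was 879.8, 111, 127 and 17.9 for mmu-miR-378a-5p and 437, 114, 95 and 16.4 for mmu-miR-378b, so these 2 members were far less abundant.

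**Figure D1:**
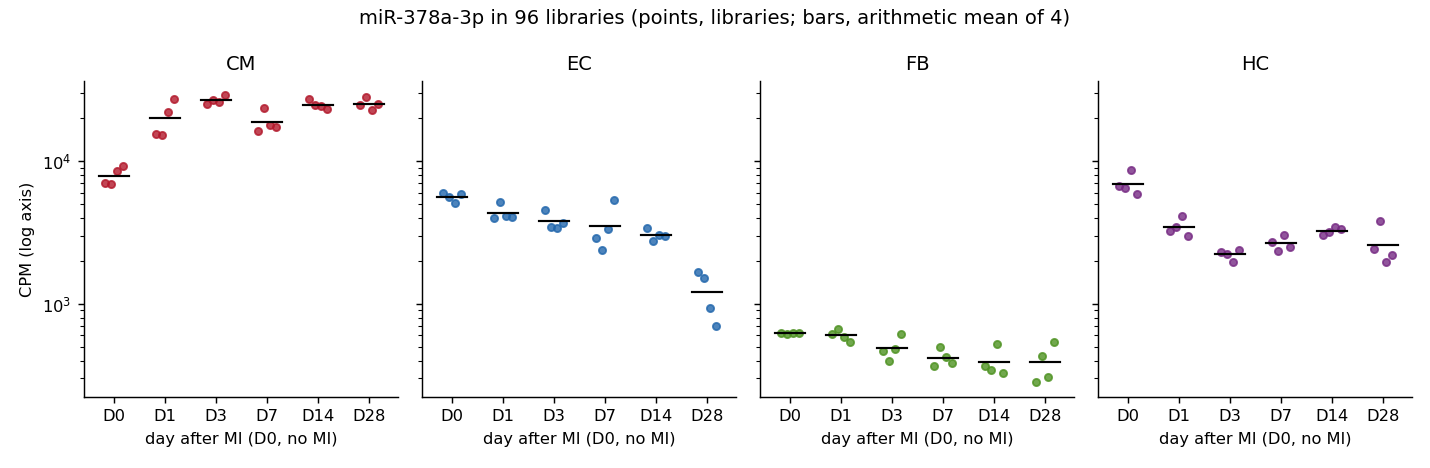
CPM of miR-378a-3p on a log axis in the 96 libraries, by cell type and day, each point being 1 library and each bar the arithmetic mean of the 4 libraries of a group. CM libraries lie highest and FB libraries lowest, and the mean CPM goes from 7894 at D0 to 25069.8 at D28 in CMs and from 5628 to 1211 in ECs.

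Differences between cell types were tested with edgeR's quasi-likelihood test on all 96 libraries and 712 miRNAs, after scaling with TMM factors (trimmed mean of M-values, which sets the bulk of miRNAs equal between libraries) and with Benjamini-Hochberg adjustment at 0.05. Averaged over the 6 days, the log2 level of miR-378a-3p in CMs exceeded that in ECs by 4.03 ± 0.10 (SE), that in HCs by 4.80 ± 0.10 and that in FBs by 6.94 ± 0.11, with adjusted p of 4.88e-56, 1.27e-61 and 2.15e-71. With library size as the only scaling these differences were smaller, at 2.56, 2.56 and 5.33. All 5 members were higher in CMs in these 3 comparisons, in which 32.2%, 35.8% and 34.8% of all miRNAs were higher in CMs. ECs also exceeded FBs, by 2.91 ± 0.094 for miR-378a-3p (2.77 with library size only), with all 5 members called and 31.9% of all miRNAs higher in ECs. The difference of FBs minus HCs was -2.14 ± 0.091 (-2.77 with library size only), with all 5 members called lower in FBs. Of the 712 miRNAs, 610 (85.7%) were called in this comparison, 271 of them higher in FBs and the rest lower. ECs and HCs were neighbours whose order depended on the scaling, with a log2 difference of 0.78 ± 0.088 (adjusted p = 2.94e-13) on the TMM scale, where 37.6% of all miRNAs were higher in ECs, and of 0.000593 (adjusted p = 0.9999) with library size as the only scaling. With library size only, 178 of the 712 miRNAs were higher in ECs. The median difference over all miRNAs was -0.033 on the TMM scale and -0.81 with library size only.

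At D0 alone, the distances of CMs from ECs and from HCs depended on the scaling. MiR-378a-3p was measured at 6887, 7029.8, 8493 and 9166 CPM in the 4 CM libraries of D0, at 5066, 5587, 5918 and 5944 CPM in ECs and at 5875, 6508, 6638 and 8640.5 CPM in HCs. FBs of D0 held 617, 619, 622 and 628 CPM, with almost no spread. The CPM of CMs and HCs overlapped at D0, and the log2 difference of CMs minus HCs was 0.20 with library size only (adjusted p = 0.342) and 3.64 ± 0.24 (adjusted p = 2.61e-24) on the TMM scale, where 25.7% of all miRNAs were higher in CMs. The difference of CMs minus ECs was 0.49 with library size only (adjusted p = 0.0218) and 3.17 ± 0.23 (adjusted p = 3.45e-21) on the TMM scale, where 23.6% of all miRNAs were higher in CMs. MiR-378b, miR-378c and miR-378d were called higher in CMs of D0 than in ECs and HCs on the TMM scale and in neither with library size only, where their adjusted p was 0.463, 0.231 and 0.21 against ECs and 0.756, 0.939 and 0.956 against HCs. MiR-378a-5p changed sign, from 1.57 to -1.08 against ECs and from 1.94 to -1.33 against HCs. With library size only, 35 of the 712 miRNAs were higher in CMs than in ECs at D0, and 16 were higher than in HCs. The median log2 difference over all miRNAs on that scale was -2.97 against ECs and -3.57 against HCs. On the TMM scale it was -0.58 and -0.73. At D0, miR-1a-3p alone took 65.7% ± 5.71 (SD, n = 4) of all mature counts of CMs, and the TMM factors of these 4 libraries were 0.289 to 0.357.

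The share of the CM level that remained in the other isolates was higher for miR-378a-3p than for most CM miRNAs. The mean CPM of miR-378a-3p in ECs was 17.4% of that in CMs, against 1.96% for miR-208a-3p, 1.36% for miR-208b-3p and 2.96% for miR-499-5p, which are encoded in myosin genes, and 14.4% and 27% for miR-1a-3p and miR-133a-3p. In HCs it was 17.1%, against 5.1% to 12.2% for the 5 CM miRNAs, and in FBs 2.37% against 0.112% to 0.493%. These shares are descriptions without a test, and the part that RNA of CMs had in the levels of the other isolates was not tested.

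**Figure D2:**
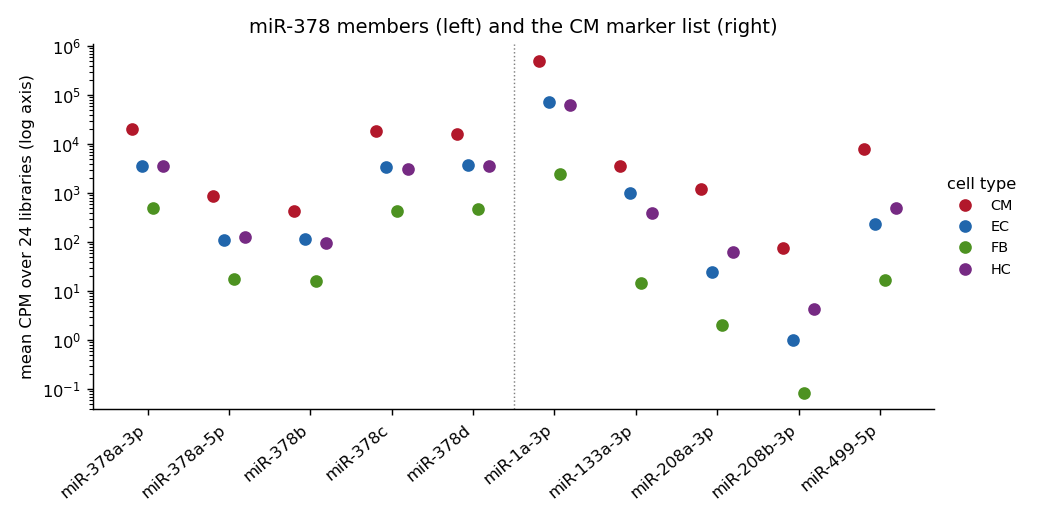
Mean CPM over the 24 libraries of each cell type, on a log axis, for the 5 miR-378 members on the left and the 5 CM miRNAs of the marker list on the right, each point being 1 cell type. The points of miR-378 members lie closer together than those of miR-208a-3p, miR-208b-3p and miR-499-5p.

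In CMs after MI, the share of miR-378a-3p among all mature counts rose, while its level relative to the bulk of miRNAs fell at D7 and D14. From the D0 values given above, the 4 CM libraries went to 15117, 15567, 22119 and 27241 CPM at D1 and 24914, 26072, 26580.3 and 28836 CPM at D3. They held 16239.5, 17230.4, 17951 and 23506 CPM at D7, 23235, 24459, 24788 and 27026 CPM at D14 and 22798, 24649.9, 24938 and 27894 CPM at D28. Every library after MI thus lay above every library of D0 on this scale, with an exact permutation p of 0.0286 at each day (two-sided, the smallest that 4 against 4 allow). With library size only, the log2 fold change against D0 was 1.34, 1.75, 1.25, 1.66 and 1.67 at D1, D3, D7, D14 and D28, and all 5 members were higher at each day, as were 59.3%, 76.4%, 80.2%, 83.1% and 69.4% of the 484 miRNAs tested.

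The median of all miRNAs moved by 1.42, 2.37, 2.67, 2.99 and 1.99 on that scale, and by 0.20, 0.44, 0.35, 0.41 and 0.25 on the TMM scale. Over the same days the share of miR-1a-3p went from 65.7% of the counts at D0 to 43.5% at D7, 35.3% at D14 and 52.1% at D28. MiR-378a-3p on the TMM scale had a log2 fold change of -1.06 ± 0.21 (SE, adjusted p = 0.000118) at D7 and -0.94 ± 0.20 (SE, adjusted p = 0.000374) at D14, a fall on this scale and a rise of 1.25 and 1.66 with library size only. Without the filter on low counts, the change at D14 was -0.61 with an adjusted p of 0.069, so that this call was lost. At D1, D3 and D28 it was 0.13, -0.16 and -0.015, with adjusted p of 0.644, 0.499 and 0.954. Relative to the median of all miRNAs, miR-378a-3p was lower at every day on both scales, by differences of -0.072, -0.60, -1.41, -1.36 and -0.26 on the TMM scale and -0.079, -0.61, -1.42, -1.33 and -0.33 with library size only. These distances were not tested. At D1 they were smaller than the SE of the change, 0.20 on the TMM scale and 0.18 with library size only. The 2 scalings thus disagreed on the sign of the change from D3 on, and at each day they gave nearly the same distance from the median.

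The paralogs moved with miR-378a-3p in CMs. On the TMM scale, miR-378a-3p, miR-378b, miR-378c and miR-378d were called lower at D7 and at D14, with log2 fold changes of -1.50 to -0.90 and -1.27 to -0.80, where 30.2% and 29.1% of all miRNAs were called lower, while with library size only these 4 members were called higher. Without the filter on low counts, miR-378c lost its calls at D7 and D14, at -0.54 (adjusted p = 0.121) and -0.47 (adjusted p = 0.202). The 4 libraries of each of these days did not overlap with D0 in any of the 4 members on the TMM scale, as in 25.6% and 24.8% of all miRNAs that lay below D0. None of the 4 was called on this scale at D1, D3 or D28, by edgeR or by DESeq2, and none had an unadjusted p under 0.05 at these days in edgeR, where 11.4%, 23.3% and 24.8% of all miRNAs were called lower. Without replicate 1 of D28, which stood high, miR-378b and miR-378d were called lower at D28 as well, at -0.64 and -0.55, and without replicate 1 of D0 miR-378b was called lower at D3, at -0.62. Since a read may count for several of these 4 members, they are not 4 separate measurements.

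Ratios to other CM miRNAs in the same library need no scaling factor, and these were added after the values were seen. The log2 ratio of miR-378a-3p to miR-1a-3p went from -6.39 ± 0.32 (SD, n = 4) at D0 to -3.82 ± 0.24 at D14, with differences from D0 of 1.52, 2.17, 1.85, 2.57 and 2.01 at the 5 days. No library after MI overlapped with D0 in this ratio (exact permutation p = 0.0286, two-sided, the smallest that 4 against 4 allow, adjusted p = 0.0816 over 40 such ratio comparisons). The log2 ratio to miR-133a-3p, another muscle miRNA, had the opposite sign, with differences of -0.74, -1.42, -2.96, -2.79 and -1.73. Of these, D7 and D14 did not overlap with D0 (exact permutation p = 0.0286), while D1, D3 and D28 did (exact permutation p = 0.371, 0.114 and 0.0571). Within CMs, miR-378a-3p was thus higher relative to miR-1a-3p and lower relative to miR-133a-3p after MI in these values, and no adjusted p of the ratios was under 0.05. These 2 references themselves moved in opposite directions in CMs. The log2 fold change of miR-1a-3p was -3.51 to -1.30 on the TMM scale and -0.90 to -0.21 with library size only. That of miR-133a-3p was 0.79 to 1.57, not called at D1 and D3, and 2.30 to 4.13.

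Markers of other cell types moved in CM libraries over the same days. The summed CPM of the 3 FB markers ranged over 36.5 to 114 at D0, 1029 to 2344 at D7 and 1358 to 2188 at D14, and that of the 4 HC markers over 14.6 to 75.8, 161 to 298 and 151 to 182. On the TMM scale 3 of 3 FB markers and 3 of 4 HC markers were called higher at D7, with median log2 fold changes of 2.92 and 3.14. Of the 3 EC markers 1 was called higher and 1 lower, of the 2 mural cell markers 1 was called lower, and of the 3 erythroid markers 2 were called higher and 1 lower at D7. The CM markers themselves were called higher in 4 of 5 and lower in 1. Their part in the changes of miR-378 was not tested.

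**Figure D3:**
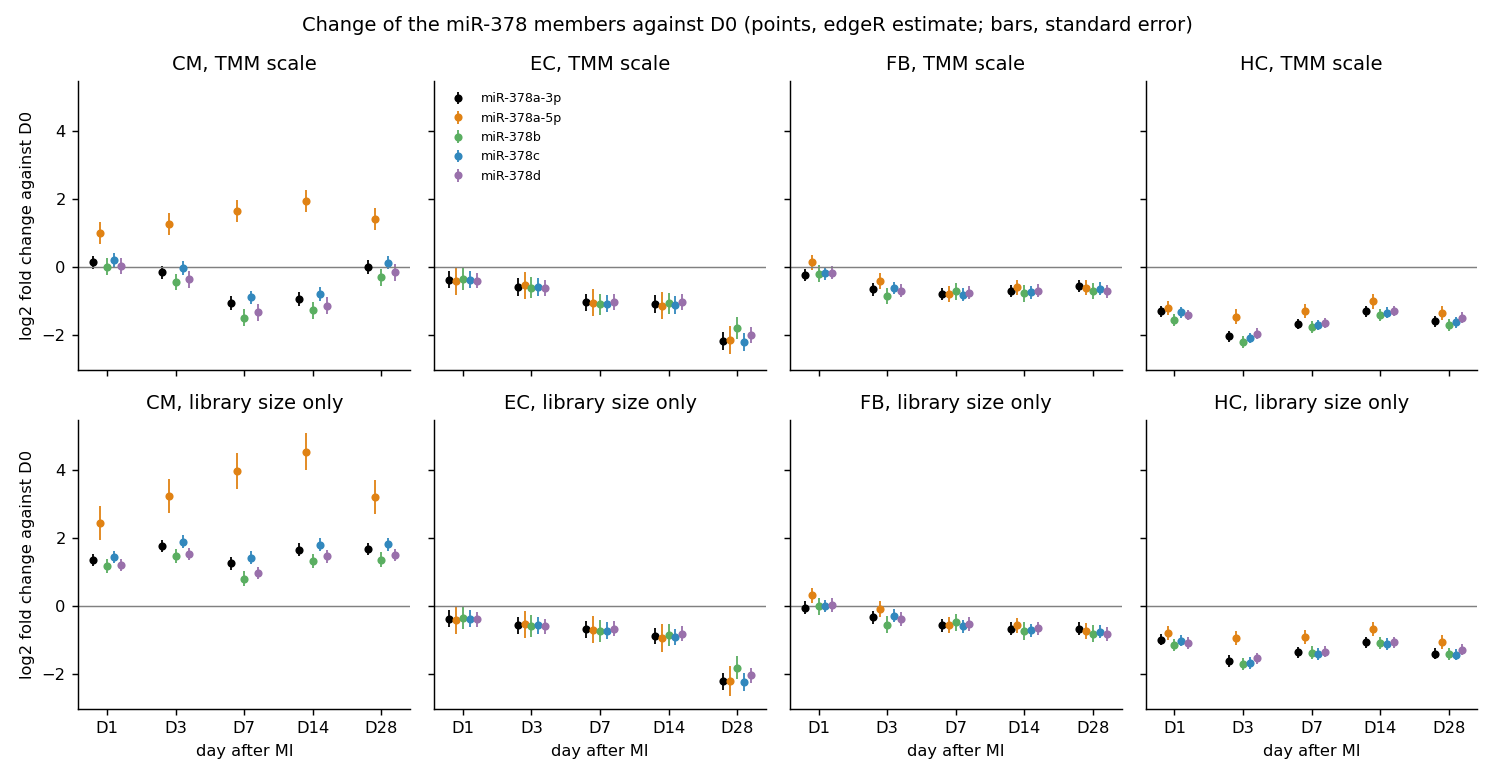
Log2 fold change against D0 of the 5 members at each day and in each cell type, by edgeR, with standard errors as bars, on the TMM scale in the upper row and with library size as the only scaling in the lower row. In CMs miR-378a-5p lies above 0 in both rows, while the other 4 members lie below 0 at D7 and D14 in the upper row and above 0 in the lower row. In ECs and HCs all members lie below 0 at each day in both rows.

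MiR-378a-5p, the minor arm of the miR-378a hairpin, rose in CMs on both scales at every day. The 4 libraries held 57.6, 61, 63.6 and 149.6 CPM at D0, 883, 1154, 1428 and 1701 CPM at D7 and 1791, 1836, 1981 and 2057 CPM at D14. At D28 they held 385, 707, 857 and 1101 CPM. In CPM, all libraries of D3, D7, D14 and D28 lay above those of D0, and the lowest library of D1, at 143 CPM, lay below the highest of D0. On the TMM scale, libraries of D1 and D3 overlapped with those of D0 (exact permutation p = 0.0857 and 0.0571). Those of D7, D14 and D28 lay above all libraries of D0. The log2 fold change of miR-378a-5p on this scale was 0.99, 1.25, 1.63, 1.94 and 1.40 at the 5 days, with adjusted p between 2.9e-05 and 0.029. It was the 1 member of 5 called higher on this scale, where 13.6%, 31.8%, 38.8%, 38% and 29.5% of all miRNAs were called higher. With library size only the change was 2.43, 3.23, 3.96, 4.53 and 3.20. The call at D1 on the TMM scale was lost when any of 5 libraries was left out (replicates 2, 3 and 4 of D0, or 3 and 4 of D1), with values of 0.74 to 0.97.

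The balance of the 2 arms of miR-378a shifted in CMs, and this ratio does not depend on the scaling. Since a read may match several members, the 3p count may include reads of miR-378b, miR-378c and miR-378d. In CMs of D0, the 5p arm made up 0.674%, 0.689%, 0.877% and 2.08% of the counts of both arms. At D7 it made up 5.16%, 6.04%, 6.75% and 7.65%, and at D14 6.22%, 7.32%, 7.49% and 7.66%. At D28 it made up 1.54%, 2.76%, 2.98% and 4.61%. Libraries of D7 and D14 lay above all libraries of D0, and those of D1, D3 and D28 overlapped with D0 through its replicate 1, at 2.08%.

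On a log2 scale the 5p count relative to the 3p count went from -6.69 ± 0.77 (SD, n = 4) at D0 to -3.70 ± 0.15 at D14. By limma over the 99 hairpins with enough counts on both arms, the difference from D0 was 2.80 ± 0.45 (SE, adjusted p = 2.15e-05) at D7 and 2.99 ± 0.45 (SE, adjusted p = 1.03e-05) at D14. It was 1.43 ± 0.45 (SE, adjusted p = 0.00962) at D3, 1.55 ± 0.45 (SE, adjusted p = 0.00524) at D28 and 0.86 ± 0.45 (SE, adjusted p = 0.131) at D1. Shifts of arms were common in CMs, where the ratio was called higher in 24.2%, 35.4%, 34.3%, 38.4% and 33.3% of hairpins at D1, D3, D7, D14 and D28, and by size of the difference miR-378a ranked 30 and 31 of 99 at D7 and D14. At D1 the shift passed the test without replicate 1 of D0 (1.24) or replicate 1 of D1 (1.18). Over all days the F test gave an adjusted p of 6.61e-05 in CMs, where 70.7% of hairpins were called.

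In the other cell types the group means of the arm balance of miR-378a covered a narrower range. In ECs the group means of the 5p share went from 2.63% to 3.08%. Those of FBs were 3.22% to 4.19%, and HCs had 2.69% to 4.72%. The adjusted p over all days was 0.824, 0.474 and 0.213, where 40.4%, 49.7% and 15.8% of hairpins were called. The exception called by limma among single days was HCs at D3, with a difference of 0.96 ± 0.30 (SE, adjusted p = 0.0281), where the ratio was called higher in 11.8% of hairpins, and without replicate 3 of D0 it was 0.49 ± 0.17 (adjusted p = 0.0282). The call was lost without replicate 1 or 4 of D3, at 0.93 and 0.87. With a pseudocount of 5 in place of 0.5 this difference was 0.48 (adjusted p = 0.0634). All HC libraries of D3, D7 and D14 lay above those of D0 in the ratio (exact permutation p = 0.0286 at each day). The limma differences at D7 and D14 were 0.76 and 0.68, with adjusted p of 0.163 and 0.235. Without replicate 3 of D0 they were 0.29 and 0.21, with adjusted p of 0.257 and 0.482. At D28 the 4 EC libraries spread widely, at 0.795%, 1.65%, 3.61% and 4.48%, on 10 to 131 counts of the 5p arm. Whether the shift in CMs differed from that in the other cell types was not tested on the ratio.

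**Figure D4:**
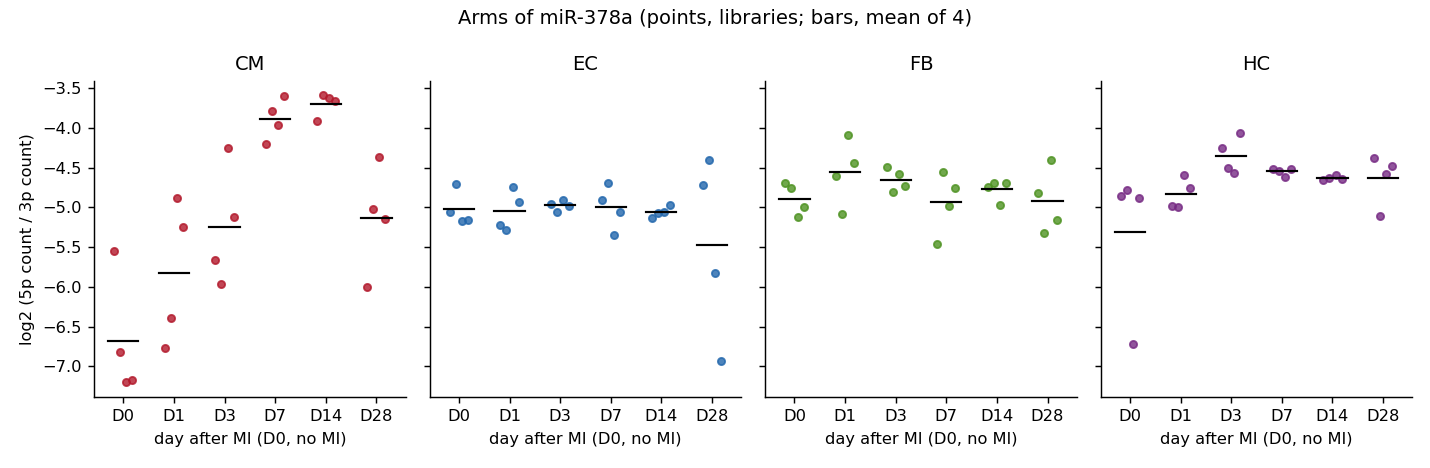
Log2 ratio of miR-378a-5p to miR-378a-3p counts in the 96 libraries, by cell type and day, each point being 1 library and each bar the mean of 4. CMs start lowest at D0, at a mean of -6.69, and are highest at D14, at -3.70, while ECs, FBs and HCs lie between group means of -5.47 and -4.35, with the widest spread from single libraries of ECs at D28 and of HCs at D0.

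In ECs all members of the family were lower from D7 on, with the lowest values at D28. The 4 EC libraries held 5066, 5587, 5918 and 5944 CPM of miR-378a-3p at D0, 2399, 2906, 3336 and 5300.03 CPM at D7 and 2746, 2975, 3029 and 3401 CPM at D14. At D28 they held 703, 937, 1527 and 1676 CPM, all far below the lowest library of D0. In CPM, 1 library of D7 lay within the range of D0, and none of D14 or D28 did. The log2 fold change on the TMM scale was -1.05 ± 0.25 (SE, adjusted p = 0.00232) at D7, -1.09 ± 0.25 (SE, adjusted p = 0.00366) at D14 and -2.19 ± 0.26 (SE, adjusted p = 2.49e-07) at D28. The corresponding values for library size as the only scaling were -0.69, -0.89 and -2.22. All 5 members were called lower at D7, D14 and D28, where 4.75%, 3.09% and 20.2% of the 421 miRNAs tested were called lower. With library size only 3, 3 and 5 of the 5 were called lower, where 5, 9 and 95 of the 421 miRNAs were.

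At D28 the members changed by -2.21 to -1.80, and without the EC replicate of D28 that stood farthest from the others all 5 were still called, with -2.03 (adjusted p = 1.28e-06) for miR-378a-3p. MiR-378a-5p passed narrowly at D7 and D14, with adjusted p of 0.0499 and 0.0489, and lost its call when any of 7 of the 8 libraries compared was left out, at -1.11 to -0.93 and -1.21 to -1.06. The libraries that could be left out with the call kept were replicate 4 of D7 and replicate 1 of D14. Without replicate 4 of D14, miR-378b lost its call at D14, at -1.01. At D1 and D3 edgeR called 0 of 5 members. At D1 none had an unadjusted p under 0.05 and DESeq2 called none, in a comparison in which edgeR called 0% of all miRNAs lower. At D3, where edgeR called 2.14% of all miRNAs lower, 3 members had an unadjusted p under 0.05 and DESeq2 called 3.

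Most CM miRNAs were also lower in ECs at D14 and D28. The summed CPM of the 5 CM miRNAs had medians of 103950 at D0, 51632 at D14 and 47616 at D28, with ranges of 75958 to 134290, 20924 to 53913 and 21003 to 80702. Of the 4 CM miRNAs tested in ECs, 1, 3 and 4 were called lower at D7, D14 and D28, with median log2 fold changes of -0.94, -1.38 and -2.01. Those of the miR-378 members at the same days were -1.05, -1.09 and -2.15, beside -0.013, 0.12 and 0.067 over all miRNAs. MiR-208b-3p, a defining CM miRNA, was at 0 in 8 of 24 EC libraries, and the other 4 were at 0 in none. Markers of other cell types moved in ECs as well. Of the 3 FB markers, 3, 2 and 2 were called higher at D7, D14 and D28, with miR-199a-3p at 1.59 and miR-214-3p at 1.75 at D7. At D28, the mural cell miRNA miR-145a-5p was lower, at -2.45, and the erythroid miR-486a-5p higher, at 1.21. Of the 3 EC markers at D28, miR-126a-5p was lower, at -1.34, and miR-92a-3p higher, at 0.77. Of the 4 HC markers 1 was called higher at D7 and 0 at D14 and D28. The part of these cell types, CMs included, in the fall of miR-378 in ECs was not tested.

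FBs had the lowest levels of the family, and 4 or 5 of its members were lower at D3, D7 and D14. MiR-378a-3p was at 399, 467, 484 and 614 CPM at D3, 367, 386, 424 and 499 CPM at D7 and 329, 346, 368 and 519 CPM at D14, against 617, 619, 622 and 628 CPM at D0. In CPM, all libraries of D3, D7, D14 and D28 lay below those of D0. The log2 fold change on the TMM scale was -0.66 ± 0.18 (SE, adjusted p = 0.0045) at D3, -0.80 ± 0.18 (SE, adjusted p = 0.000927) at D7, -0.71 ± 0.18 (SE, adjusted p = 0.00527) at D14 and -0.56 ± 0.18 (SE, adjusted p = 0.0632) at D28. With library size only it was -0.34 at D3 (adjusted p = 0.141) and -0.67 at D28 (adjusted p = 0.0359), so that the calls at these 2 days changed with the scaling.

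Of the 5 members in FBs, 4, 5, 4 and 2 were called lower at D3, D7, D14 and D28, where 20.1%, 21.1%, 10.3% and 1.95% of the 563 miRNAs tested were. The counts with library size only were 0, 3, 4 and 3, where 50, 69, 45 and 16 of the 563 miRNAs were called lower. Without the filter on low counts, calls were lost for miR-378c at D3, at -0.51 (adjusted p = 0.0741), and D28, at -0.59 (adjusted p = 0.0981), and for miR-378b at D7, at -0.61 (adjusted p = 0.0851), and D14, at -0.70 (adjusted p = 0.0586). The 4 calls of D3 were lost without replicate 1 or without replicate 2 of D3, where miR-378a-3p was at -0.57 and -0.48. Calls of miR-378b at D7 and D14 were each lost when 1 library was left out (replicate 3 of D0 and replicate 1 of D7, and replicate 3 of D0 and replicates 1 and 4 of D14). The 2 called at D28 were miR-378c at -0.64 and miR-378d at -0.72, and these calls were lost when single libraries were left out (any of D0 or replicates 1 and 3 of D28 for miR-378c, and replicate 1 of D0 or replicates 1 and 3 of D28 for miR-378d). Without the FB replicate of D0 that stood farthest from the others, 1 of 5 was called at D28. At D1 edgeR and DESeq2 called 0 of 5, with none at an unadjusted p under 0.05, where edgeR called 2.13% of all miRNAs lower. MiR-378a-5p was counted between 50 and 1125 times in FB libraries and passed the test at D7 alone, with -0.79 ± 0.23 (SE, adjusted p = 0.0065) on the TMM scale and -0.57 (adjusted p = 0.0514) with library size only. Summed CPM of CM miRNAs in FBs had a median of 2998 at D0 and 1369.7 at D7, within ranges of 2058 to 4863 and 1128 to 2365, and 1 of the 4 tested was called lower at D7. MiR-208b-3p was at 0 in 11 of 24 FB libraries and miR-208a-3p in 1. At D7, 1 of 3 EC markers, 1 of 3 FB markers, 2 of 4 HC markers, 1 of 2 mural cell markers and 1 of 3 erythroid markers were called lower in FBs, and none higher. The part of these cell types, CMs included, in the changes of miR-378 in FBs was not tested.

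In HCs the whole family was lower at every day after MI, with the lowest mean level of miR-378a-3p at D3. MiR-378a-3p was at 5875, 6508, 6638 and 8640.5 CPM at D0, the highest value being that of the shallow library, and at 2998, 3229, 3441 and 4125 CPM at D1. It was at 1974, 2233, 2301 and 2374 CPM at D3 and at 1948, 2191, 2417 and 3817 CPM at D28. No library after MI reached the lowest library of D0. The log2 fold change on the TMM scale was -1.31 ± 0.16 (SE, adjusted p = 1.62e-07) at D1, -2.04 ± 0.16 (SE, adjusted p = 9.62e-11) at D3, -1.68 ± 0.16 (SE, adjusted p = 4.68e-09) at D7, -1.31 ± 0.16 (SE, adjusted p = 8.57e-07) at D14 and -1.61 ± 0.16 (SE, adjusted p = 2.71e-08) at D28. With library size only they were -0.99, -1.63, -1.37, -1.08 and -1.40.

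All 5 members were called lower at each of the 5 days in HCs, where 28.9%, 28.1%, 19.6%, 12.8% and 11.3% of the 608 miRNAs tested were called lower. Without replicate 3 of D0 all 5 were called lower at each day as well, and miR-378a-3p fell by 2.05 at D3 (adjusted p = 2.97e-10). The smallest fall at D3 was that of miR-378a-5p, by 1.46, and the largest that of miR-378b, by 2.21. MiR-378a-5p overlapped with D0 at every day through the shallow library of D0, whose value rests on 1 count, and lay below its other 3 libraries.

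Most CM miRNAs were also lower in HCs. Their summed CPM had medians of 110334, 86036, 46550.1, 31060.3, 53209 and 33963 at D0, D1, D3, D7, D14 and D28, and the ranges of D0 and D3 were 85777 to 132342 and 38494 to 64737. Of the 5 CM miRNAs, 3, 4, 5, 4 and 4 were called lower at D1, D3, D7, D14 and D28, with median log2 fold changes of -0.65, -1.58, -2.01, -1.14 and -1.80. MiR-208b-3p was called lower at D7 alone and was called higher at D14, at 1.07 (adjusted p = 0.0475). The medians of the miR-378 members were -1.34, -2.04, -1.68, -1.31 and -1.61, and those of all miRNAs -0.084, 0.019, 0.18, 0.050 and 0.076. Relative to miR-1a-3p in the same library, miR-378a-3p was lower in HCs at D1 and D3, by log2 differences of -0.71 and -0.46 without overlap (exact permutation p = 0.0286, adjusted p = 0.0816). At D7, D14 and D28 this difference was 0.35, -0.12 and 0.24 (exact permutation p of 0.0571, 0.4 and 0.257). Relative to miR-133a-3p it was -0.33, -0.14, 0.57, -0.16 and 0.21 at the 5 days (exact permutation p of 0.171, 0.314, 0.0286, 0.286 and 0.257), with D7 alone not overlapping with D0. None of the 5 CM miRNAs was at 0 in an HC library.

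Markers of the other cell types moved in HCs too. Both mural cell markers were called lower at each day, with miR-143-3p at -2.62 and miR-145a-5p at -2.41 at D3. Of the 3 EC markers 1, 2, 2, 2 and 2 were called lower at D1, D3, D7, D14 and D28, with miR-126a-3p at -2.43 at D3, and of the 3 erythroid markers 1, 1, 2, 1 and 1, with miR-486a-5p at -2.72 at D3. The 3 FB markers were all called lower at D1 and D3 and all higher at D14 and D28, with miR-199a-5p at -0.82 at D3 and 1.86 at D28. Of the 4 HC markers 3, 3, 2, 0 and 1 were called higher at the 5 days, with miR-142a-3p at 1.49 at D1 and miR-142a-5p at 1.65 at D3, and miR-150-5p was called lower at D1 and D3. The part of these cell types, CMs included, in the fall of miR-378 in HCs was not tested.

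Over the time course as a whole, all 5 members passed the edgeR F test in each of the 4 cell types, where 73.8%, 58.2%, 68.2% and 73.5% of all miRNAs did in CMs, ECs, FBs and HCs. The difference between cell types in these changes was tested as the change in CMs minus the mean change in ECs, FBs and HCs, on all 96 libraries and on the TMM scale. For miR-378a-5p it was 1.85 ± 0.38, 2.50 ± 0.38, 3.00 ± 0.39, 3.14 ± 0.39 and 2.98 ± 0.39 (log2, SE) at the 5 days, with adjusted p between 7.25e-11 and 0.000237. For miR-378a-3p the values at D1, D3 and D28 were 1.00 ± 0.25, 1.35 ± 0.25 and 1.60 ± 0.25, with adjusted p of 0.0019, 6.14e-06 and 1.09e-07, and 0.41 ± 0.25 at D7 and 0.34 ± 0.25 at D14, with adjusted p of 0.184 and 0.285. All 5 members passed this test at D1, D3 and D28, miR-378a-5p and miR-378c at D7, and miR-378a-5p at D14, where 15.9%, 27.9%, 28.2%, 26.5% and 23.9% of the 712 miRNAs were higher in this difference at D1, D3, D7, D14 and D28. Without the filter on low counts, the difference of miR-378c at D7 was 0.41 (adjusted p = 0.543) and that of miR-378b at D1 0.96 (adjusted p = 0.052). With library size only, miR-378a-3p differed at all 5 days, by 1.82, 2.60, 2.13, 2.54 and 3.10. The median over all 712 miRNAs in this difference was 1.09, 1.73, 1.97, 2.32 and 1.77 on that scale. Called higher there were 248, 357, 403, 426 and 357 of them at the 5 days. On the TMM scale the median was 0.55, 0.81, 0.70, 0.49 and 0.55.

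The paralogs miR-378c and miR-378d, shown above with their sequences, had counts close to those of miR-378a-3p in every library. The count of miR-378c was 80.3% to 95.5% of the miR-378a-3p count over the 96 libraries, and that of miR-378d 67.7% to 141%. MiR-378b, the shortest listed member, stood at 1.84% to 5.33%. On hairpins the picture was different, since the count of the miR-378d hairpin was 0.0407% to 1.42% of that of the miR-378a hairpin, that of the miR-378b hairpin 3.52% to 11.4% and that of the miR-378c hairpin 43% to 71.7%. How the pipeline assigned a read that matched several members is not given in the sources used here, so the counts of miR-378b, miR-378c and miR-378d cannot be told apart from shared reads of miR-378a-3p.

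The ratios to miR-378a-3p still differed between cell types. The median count of miR-378d relative to miR-378a-3p was 78.1% in CMs, 96.4% in FBs, 101% in HCs and 104% in ECs. That of miR-378b was 2.15%, 3.3%, 2.76% and 3.14% in the same order, lowest in CMs for both. MiR-378c was at 89.2% in CMs, 86.8% in FBs, 89.6% in HCs and 94.1% in ECs. The SD of the log2 ratio over the 24 libraries of a cell type was 0.022 to 0.066 for miR-378c, 0.11 to 0.14 for miR-378d and 0.14 to 0.23 for miR-378b. In CMs the ratios also differed between days. From D0 to D7 the mean log2 ratio rose from -0.30 to -0.14 for miR-378c. It fell from -0.18 to -0.45 for miR-378d and from -5.28 to -5.71 for miR-378b, and libraries of D0 and D7 did not overlap in any of these. These ratios describe the counting as well as abundance and were not tested.

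**Figure D5:**
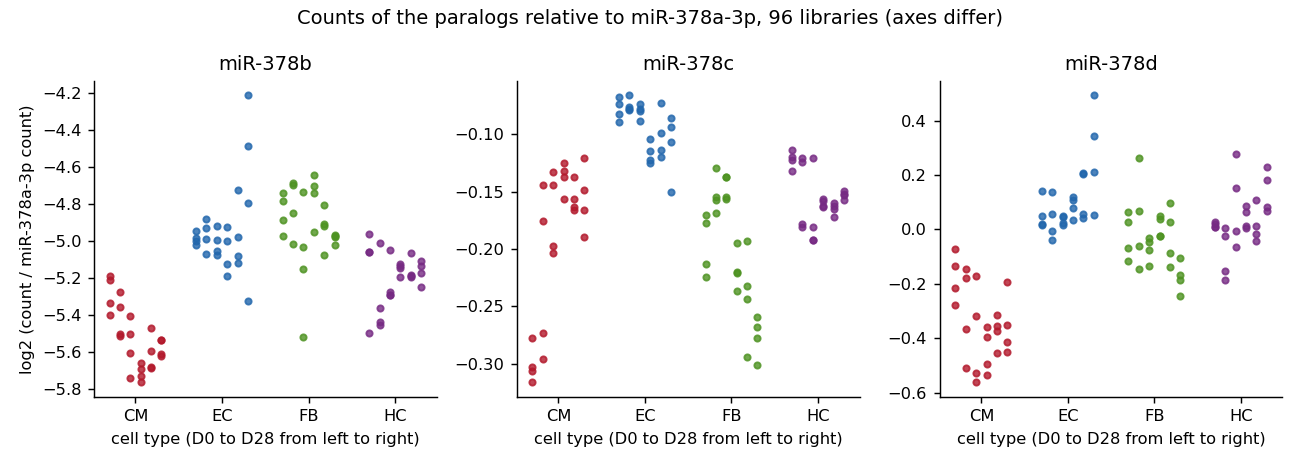
Log2 ratio of the counts of miR-378b, miR-378c and miR-378d to that of miR-378a-3p in the 96 libraries, by cell type with days from left to right, each point being 1 library and each panel having its own axis. The ratios of miR-378b and miR-378d lie lowest in CMs, and those of miR-378c stay below 0 in every library.

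Outside the family, the miRNAs whose level followed miR-378a-3p most closely over the 24 group means of log2 CPM were miR-499-5p, miR-490-3p, miR-133a-5p, miR-208a-3p and miR-1a-3p, with Pearson's r of 0.98, 0.97, 0.97, 0.97 and 0.96 among 294 miRNAs compared. On the TMM scale r was 0.98, 0.98, 0.96, 0.96 and 0.97. These values rest mostly on the distance between cell types, the points share libraries within a group, and no p is given. Their order of levels was also highest in CMs and lowest in FBs, with mean CPM of 7949, 83.5, 90.5, 1228 and 505167 in CMs. Within the family r was 0.9996 for miR-378c and 0.96 for miR-378a-5p, the other arm of the same hairpin.

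Other miRNAs linked to metabolism, a list of 20, changed in both directions. In CMs 7, 11, 11, 13 and 12 of the 20 were called higher on the TMM scale at D1, D3, D7, D14 and D28, and 1, 3, 2, 5 and 3 were called lower, beside 13.6%, 31.8%, 38.8%, 38% and 29.5% higher and 11.4%, 23.3%, 30.2%, 29.1% and 24.8% lower among all miRNAs. The list had a median log2 fold change of 0.91 at D7 beside 0.35 over all miRNAs and -1.06 over the miR-378 members. At D7 the lowest changes of the list in CMs were those of miR-143-3p at -3.26, abundant in smooth muscle, and of the liver miRNA miR-122-5p at -1.61. With library size only miR-122-5p was at 0.71, and its mean in CMs was 1.14 CPM. The highest changes were those of miR-455-3p at 4.50 and of the myeloid miRNA miR-223-3p at 3.67. Both came from means of a few CPM and both were higher with library size only as well. In ECs at D28, 2 of 18 tested were higher and 8 lower (all miRNAs 26.8% and 20.2%), and in HCs at D3, 5 of 20 were higher and 8 lower (all miRNAs 30.9% and 28.1%). In FBs at D7, 3 of 20 were higher and 8 lower (all miRNAs 24.5% and 21.1%).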

How the data were processed

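Small RNA of 96 libraries was analysed from the count tables that the authors deposited, 192 in all, with raw counts of aligned reads per mature miRNA and per hairpin and no normalization. According to the paper's methods, adaptors were trimmed with Trim Galore, reads shorter than 18 nt were removed, and the nf-core small RNA-seq pipeline aligned the reads to miRBase release 21. The submitters' processing notes list Bowtie2, SAMtools and build mm10. The pipeline version and aligner settings are not given in the sources used here. Reads without a match, 25.6% to 83% per library, name no miRNA and were kept out of library sizes and tests. No 2 libraries of a group were identical among 144 pairs, and each pair differed by more than counting noise.

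Groups came from the labels. Changes against D0 were tested in each cell type on 24 libraries with edgeR 4.0.16 in R 4.3.3 (filterByExpr, TMM, quasi-likelihood test, Benjamini-Hochberg adjustment over all miRNAs tested, threshold 0.05), and cell types on all 96. Log2 arm ratios, with a pseudocount of 0.5 and at least 10 counts per arm on average, were tested with limma 3.58.1. Exact permutation tests were two-sided over 70 arrangements. The scripts were tested on simulated data. Libraries are pools, and p-values measure the spread between these pools. The methods state that the cell types of a time point share their mice but not which pools match, so the test across cell types treated the 96 libraries as separate, and a fit with day and replicate number together as a block was an alternative. Alternatives were DESeq2 1.42.0, library size only, no filter, the replicate number as a block, the compared days alone, the library farthest from its group left out in the 3 groups from which the study removed a replicate (D28 of ECs, and D0 of FBs and of HCs), each library left out, a pseudocount of 5 and at least 50 counts per arm. Values and figures were computed in Python 3.11.15 with numpy 2.4.6, pandas 2.3.3 and scipy 1.17.1. Sequences came from RefSeq on GRCm38.p6. The members and lists were chosen with earlier results of these data known. Named miRNAs are the 5 members, the 5 most correlated with miR-378a-3p, a list of cell type markers, and the 2 highest and 2 lowest changes in CMs at D7 of a list of miRNAs linked to metabolism.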

Additional observations from a re-analysis of the deposited data

Results flagged for a closer look

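Single libraries stood apart from the other 3 of their group in 7 of 144 groups of 4, counting each member and the arm ratio in each cell type and day, and chance flags about 1 in 20 groups. In log2 CPM on the TMM scale, replicate 3 of CMs at D3 was low for miR-378a-3p, at 14.13 against 14.47 to 14.49 in the others, and for miR-378c, at 14.00 against 14.29 to 14.33. Replicate 2 of FBs at D7 was high for miR-378a-3p, at 8.87 against 8.45 to 8.51. Replicate 1 of CMs at D28 was high for miR-378b, at 9.63 against 8.60 to 8.76. For miR-378a-5p, replicate 3 of HCs was low at D0, at 6.24 on 1 count, and replicate 3 of HCs was high at D1, at 7.37 on 803 counts. The arm ratio of miR-378a in replicate 3 of HCs at D0 was low, at -6.72 against -4.88 to -4.79, on the same single count.

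The change in CMs differed from the mean change in ECs, FBs and HCs in 18 of 25 tests of this difference (edgeR, log2, TMM scale, adjusted p under 0.05), with CMs higher in each. Of all 712 miRNAs, 15.9%, 27.9%, 28.2%, 26.5% and 23.9% were higher in this difference at D1, D3, D7, D14 and D28. Its median over all miRNAs was 0.55, 0.81, 0.70, 0.49 and 0.55 at these days. Since a read may count for several members, the 25 tests are not separate measurements. At D1 the differences were 1.85, 1.00, 0.95, 1.08 and 0.89 for miR-378a-5p, miR-378a-3p, miR-378b, miR-378c and miR-378d. In the same order they were 2.50, 1.35, 1.21, 1.48 and 1.13 at D3 and 2.98, 1.60, 1.27, 1.79 and 1.39 at D28. At D7 the difference was 3.00 for miR-378a-5p and 0.60 for miR-378c, and at D14 it was 3.14 for miR-378a-5p.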

How the results depend on the processing

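Scaling changed signs in CMs. With library size only, the log2 change of miR-378a-3p in CMs was 1.34, 1.75, 1.25, 1.66 and 1.67 at D1, D3, D7, D14 and D28, with the opposite sign to the TMM scale from D3 on, and in the exact permutation tests 1.76, 1.24, 1.66 and 1.67 at D3 to D28. Opposite signs were also found for miR-378b (1.46, 0.80, 1.32 and 1.36) and miR-378d (1.53, 0.97, 1.45 and 1.49) at D3 to D28, and for miR-378c (1.89, 1.41 and 1.80) at D3 to D14, all in CMs, and for miR-378d in FBs at D1 (0.023). In FBs miR-378a-3p lost its call at D3 (-0.34) and gained one at D28 (-0.67). Between cell types, miR-378a-3p lost its call for CMs minus HCs at D0 (0.20) and ECs minus HCs over all days (0.000593), while ECs minus HCs at D0 turned to -0.29. In the same order, the median over all miRNAs with library size only was -3.57, -0.81 and -0.58. CMs minus the other cell types gained calls at D7 (2.13) and D14 (2.54), where the median over all miRNAs was 1.97 and 2.32. For miR-378a-5p, CMs minus ECs and CMs minus HCs at D0 turned to -1.08 and -1.33, and ECs minus HCs to -0.35 over all days and -0.25 at D0. ECs minus HCs at D0 turned to -0.12, -0.25 and -0.25 for miR-378b, miR-378c and miR-378d. The ratio to miR-1a-3p, added after the data were seen, gave 1.52, 2.17, 1.85, 2.57 and 2.01 in CMs, and the ratio to miR-133a-3p gave -0.74 at D1.

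Without the filter on low counts, miR-378a-3p in CMs was at 0.17 at D3, -0.61 at D14 (no longer called) and 0.26 at D28, miR-378c at 0.30 at D3 and miR-378d at 0.11 at D28. It also turned miR-378a-5p in ECs minus HCs to -0.077 over all days and -0.037 at D0, and CMs minus the others to -0.20 and -0.057 for miR-378b and -0.10 and -0.015 for miR-378d at D7 and D14. Calls were also lost for miR-378c in CMs at D7 and D14 (-0.54 and -0.47), for miR-378b at D7 and D14 (-0.61 and -0.70) and miR-378c at D3 and D28 (-0.51 and -0.59) in FBs, for miR-378c in ECs minus HCs at D0 (0.11), and for CMs minus the others of miR-378b at D1 (0.96) and miR-378c at D7 (0.41). DESeq2 called miR-378a-3p in ECs at D3 (-0.68) and in FBs at D28 (-0.58), and turned miR-378b and miR-378d in CMs at D1 to -0.10 and -0.083. A fit of the compared days alone called miR-378a-3p in ECs at D3 (-0.61) and gave -0.044, -0.029 and -0.078 for miR-378b and miR-378d at D1 and miR-378c at D28 in CMs. In ECs at D3, 0 of 5 members were called by edgeR, 3 by DESeq2 and 1 without the farthest library of D28. In FBs at D28 these counts were 2, 3 and 1, the last without the farthest library of D0. The arm ratio in FBs at D28 turned to 0.010 without the farthest library, and that in HCs at D1 to -0.00277 with a pseudocount of 5. The cause of these changes was not tested.

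Deviations of same-numbered libraries correlated on average at 0.00748 between days and 0.0446 between cell types. All 4 pairs exceeded 0.1 in 1 of 60 and 1 of 36 comparisons. Mice of different days differ and groups of 4 are small, so these values cannot decide whether equal numbers mark the same mice. In the test across cell types, with day and replicate number together as a block, no call changed. With the replicate number as a block within a cell type, no call of miR-378a-3p changed, miR-378b and miR-378d in CMs at D1 were at -0.051 and -0.037, and the 2 calls of miR-378a-5p in ECs at D7 and D14 were lost.

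Leaving out each library in turn gave -0.32 to 0.10 for miR-378a-3p in CMs at D28 and -0.80 to -0.48 and -0.72 to -0.42 in FBs at D3 and D28, where calls changed. Signs changed within -0.038 to 0.26 for miR-378a-5p in FBs at D1, -0.12 to 0.20 and -0.084 to 0.17 for miR-378b and miR-378d in CMs at D1, and -0.18 to 0.014 and -0.16 to 0.23 for miR-378c in CMs at D3 and D28. The same held for CMs minus the others at D7 and D14, within -0.12 to 0.12 and -0.079 to 0.19 for miR-378b and -0.042 to 0.22 and -0.023 to 0.23 for miR-378d, and for arm ratios within -0.13 to 0.083, -0.083 to 0.14, -0.084 to 0.072 and -0.80 to 0.037 in ECs at D1, D7, D14 and D28 and -0.17 to 0.13 and -0.21 to 0.10 in FBs at D7 and D28. Depth limits miR-378a-5p, which had as few as 1 count in HCs and 10 in ECs.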
